A study of Homo sapiens with 6 samples.

Results

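The genes described here are the cytosolic and mitochondrial chaperones of JJN3, an established human myeloma cell line, measured on Affymetrix U133 Plus 2.0 arrays. They were taken by symbol (HSPA, HSPB, HSPD1, HSPE1, HSPH1, HSP90A, DNAJA, DNAJB, DNAJC, CCT, TCP1 and BAG), without HSPA5, HSPA13, HSPBP1, DNAJB9, DNAJB11, DNAJC3 and DNAJC10, and the brightest probe set stood for each gene. This gave 198 probe sets and 86 symbols of 19775 genes named on the array. Of these, 75 fell into 8 classes, which are HSP70 and HSP110 (10 genes), HSP90 (2), the small heat shock proteins (7), the mitochondrial chaperonin (2), the cytosolic chaperonin TRiC/CCT (9), DNAJA and DNAJB (14), DNAJC (25) and BAG (6). The other 11 were 5 non-coding RNAs, 5 TCP10 or TCP11 symbols that share only their first letters with TCP1, and HSPBAP1, a protein that binds a small heat shock protein. HSPA1A, HSPA1B, HSPA8 and TCP1 were on the array only in probe sets that name several genes, and HSPB11 was not named, so these 5 were not measured here. The rule goes by symbol, so a few members work elsewhere in the cell, such as DNAJC1 in the endoplasmic reticulum membrane.

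The study had 6 arrays of total RNA, 3 of JJN3 cells transduced with a virus that expresses a non-specific scrambled shRNA and 3 of cells transduced with one that expresses an shRNA against CKS1B, a cofactor of the ubiquitin ligase that marks p27 for destruction. All 6 samples therefore carry a viral vector, and untransduced JJN3 cells were not analysed here. Titles letter the arrays of each group A, B or C, and that of scrambled array B ends in "poly", a word the labels leave unexplained. Whether arrays of 1 group stem from separate cultures or clones is not given, so p-values reflect the spread between these arrays only, and that spread may be technical. In RNA from a whole culture, fewer cells of a type and less RNA per cell cannot be told apart.

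Chaperones bind unfolded or partly folded proteins and let them reach their native form. HSP70 binds short exposed stretches of its clients in a cycle driven by ATP. In this cycle J-domain proteins (the DNAJ families) start ATP hydrolysis, and most BAG proteins and HSP110 release the nucleotide. HSP90 takes over late folding steps of kinases and steroid receptors, and the chaperonins enclose a whole protein, actin and tubulin in TRiC and matrix proteins in HSPD1 with its lid HSPE1. Myeloma cells secrete large amounts of immunoglobulin, and heat shock factor 1 (HSF1) drives many chaperone genes through the heat shock element, a run of inverted GAA units.

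The promoters of 66 of the 75 chaperone genes were in the RefSeq table used here (GRCh38.p14), as windows of 300 bases from 250 before to 50 after each listed start. A heat shock element of 3 units, GAANNTTCNNGAA or its reverse complement TTCNNGAANNTTC, was searched on both strands. It was present in 6 of 89 chaperone windows (6.74%) and in 172 of all 35116 windows (0.49%). The shorter form of 2 units, GAANNTTC or TTCNNGAA, which every longer match also holds, was in 27.0% of the chaperone windows and 13.5% of all windows. The stretches with the longer form are printed 5′ to 3′ on the strand of the gene with the matching bases in capitals, since the results return to these 6 genes.
HSP90AB1, chr6:44247763-44247858, plus strand: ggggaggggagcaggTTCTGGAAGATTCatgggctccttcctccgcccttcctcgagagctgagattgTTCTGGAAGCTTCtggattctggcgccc
HSP90AA1, chr14:102087105-102087147, minus strand: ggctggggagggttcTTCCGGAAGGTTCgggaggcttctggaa
HSPD1, chr2:197500053-197500090, minus strand: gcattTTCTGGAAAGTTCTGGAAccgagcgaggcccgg
HSPA6, chr1:161524451-161524493, plus strand: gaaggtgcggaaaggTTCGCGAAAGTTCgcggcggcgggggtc
DNAJB6, chr7:157336858-157336900, plus strand: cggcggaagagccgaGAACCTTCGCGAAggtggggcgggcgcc
DNAJA1, chr9:33025276-33025288, plus strand: GAACTTTCCAGAA
The matches of the first 5 genes lie upstream of the listed start, HSP90AB1 has 2 separate matches, the 2 of HSPD1 overlap, and the match of DNAJA1 lies just after its start. These are letters in a window and not measured binding sites.

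The deposited values are MAS5 intensities, 1 per probe set and array. The targeted gene CKS1B read 8266, 8441 and 7294 on the scrambled arrays and 481, 269 and 828 with the CKS1B shRNA, in the order A, B, C that is kept in all that follows. The groups did not overlap, with a log2 difference of -4.02 (SE 0.44, limma adjusted p = 0.246) and an exact two-sided permutation p of 0.1, the smallest that 3 arrays against 3 can give. CKS1B shRNA array B stood apart from all others. Its Pearson correlation with them over log2 values was 0.577 to 0.610, against 0.879 to 0.958 among the other 5. Its ratio of 3′ to 5′ signal, a sign of RNA quality, was 12.4 for actin and 4.70 for GAPDH. The GAPDH ratio was 0.981 to 1.18 on the other arrays. The actin ratio was 2.93 on CKS1B shRNA array C, which stays in the fit without array B, and 1.05 to 1.66 on the rest. Results are therefore given with and without CKS1B shRNA array B, and without it CKS1B was lower by -3.63 on the log2 scale (limma adjusted p = 0.00126). Scrambled array C departed too, though less, and stays in the fit without array B. Its median value was 202, against 117.5 to 136 on the others except CKS1B shRNA array B (334). The standard deviation of its log2 values was 1.83, against 2.20 to 2.24 on those others and 1.61 on B. Its highest correlation with another array was 0.891. Of 8 plasma cell genes, 7 read above the median gene on every scrambled array and 7, 5 and 6 with the CKS1B shRNA, and their summed level was 24042 to 31647 on the scrambled arrays against 31399, 15421 and 21311. IRF4 (3529 to 10257) and PRDM1 (2724 to 6031) were bright on every array and SLAMF7 was dim on all (24.8 to 160), while TNFRSF17 was 409 and MZB1 442.5 on CKS1B shRNA array B, and CD38 was 140 on array C. Of the B cell markers MS4A1 was bright (4578 to 7996), PAX5 dim (42.9 to 287) and CD79A at 106 to 583. The 4 T cell markers summed to 502 to 1170 on 5 arrays and to 3349 on CKS1B shRNA array B, of which CD8A was 38.7. Their part in the results was not tested.

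No chaperone passed the test in either fit. A gene was tested if its mean log2(value + 16) was at or above 7.34, a value near 146, which kept 63 of the 75 chaperones and 12663 of 19775 genes. With 6 arrays limma called 0 of the 12663 genes at an adjusted p of 0.05 (0.0%), and 373 had an unadjusted p under that level (2.95%), none of them a chaperone. Array weights in the same fit called 4 genes. Without CKS1B shRNA array B limma called 5 genes (0.0395%), and 1202 had an unadjusted p under 0.05 (9.49%). Among the 63 chaperones that number was 5 (HSP90AB1, BAG3, DNAJB6, CCT8 and DNAJC5G), and their lowest adjusted p was 0.490. Of these, DNAJC5G reached the limit for testing only through its scrambled arrays.

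By their median, the 75 chaperones lay close to the other genes. With 6 arrays 32 read higher and 43 lower with the CKS1B shRNA, and the median log2 difference was -0.10, against 0.04 over all 19775 genes. Of all genes 10402 were higher and 9373 lower, a majority the other way. Without array B 34 were higher and 41 lower, with a median of -0.09 against -0.11 for all genes, of which 8121 were higher and 11654 lower. Centring each array on its median moved the median of all genes to -0.19 with 6 arrays and to 0.08 without array B, and every gene by the same amount. The split of the chaperones then became 20 higher and 55 lower with 6 arrays, and 51 higher and 24 lower without array B. The split of all genes tested moved in the same way, from 5609 higher and 7054 lower to 3588 and 9075 with 6 arrays, and from 5893 and 6770 to 8119 and 4544 without array B. Before centring, the 63 tested chaperones gave 23 higher and 40 lower with 6 arrays, and 29 and 34 without array B. Between 6 arrays and 5 the sign differed for 24 of the 75 chaperones.

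Groups that do not overlap give another view of the same arrays. All 3 CKS1B shRNA arrays read above all scrambled arrays for 5 of 75 chaperones (HSPA6, BAG6, CCT2, DNAJA3 and DNAJC6), where 4.33% of all genes did so. All 3 read below for another 5 (CCT7, CCT8, DNAJC5G, DNAJC12 and DNAJC30), where 4.69% of all genes did so. Without array B, 15 chaperones (20%) lay wholly above and 8 (10.7%) wholly below, against 10.2% and 14.2% of all genes. Quantile normalization of these 5 arrays left 9 above and 9 below (12% each), against 11.5% and 13.1% of all genes, so the excess above was not seen on that scale.

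**Figure D1:**
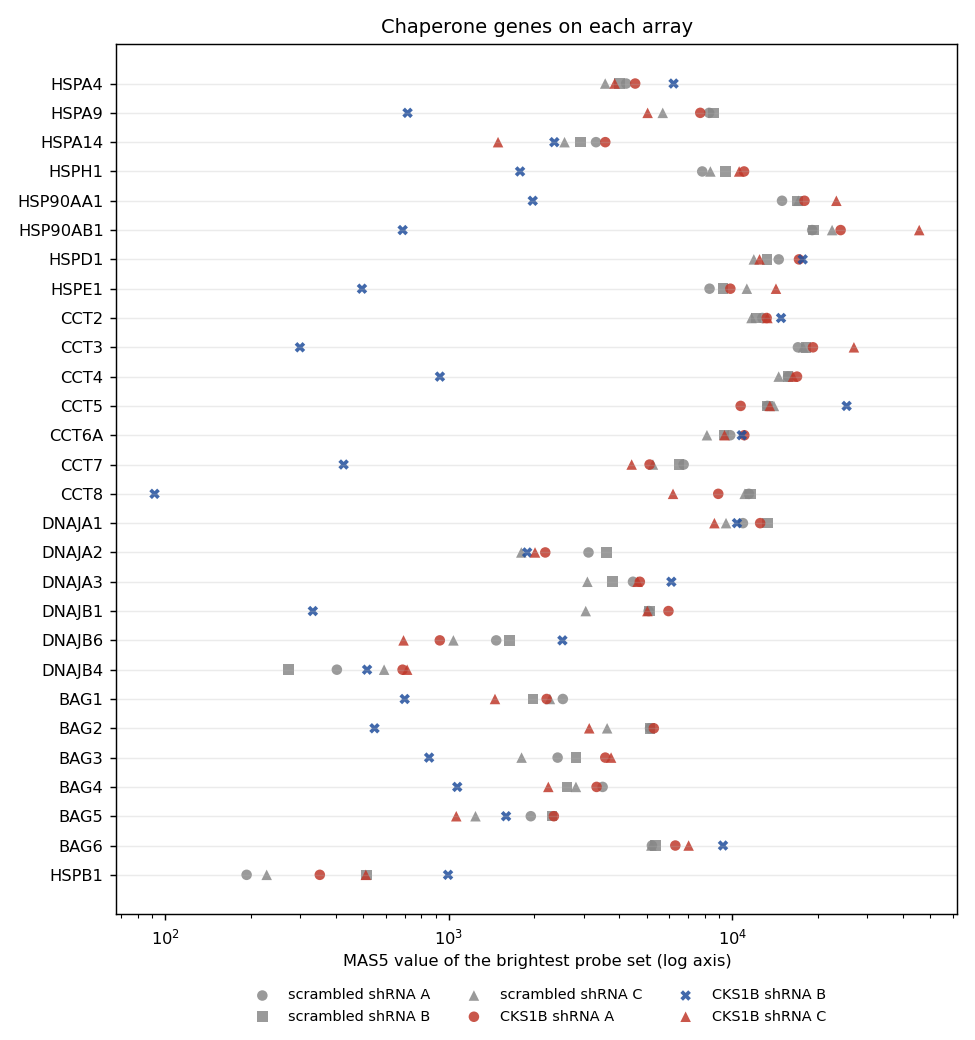
MAS5 value of the brightest probe set of 28 chaperone genes (horizontal log axis) on the 3 scrambled shRNA arrays (grey) and the 3 CKS1B shRNA arrays (A and C red, B blue crosses), with no averaging. For HSP90AB1, CCT3 and CCT8 the blue cross sits far left of the other 5 arrays, at 688, 299 and 91.7, and for CCT5 and BAG6 it sits to their right.

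HSP70 proteins and their HSP110 relative gave 6 genes higher and 4 lower in both fits, with a median log2 difference of 0.13 with 6 arrays and 0.04 without array B, which turned to -0.10 after median centring and -0.06 after quantile normalization of the 6 arrays. HSPA6, a heat-inducible HSP70 with a heat shock element among the printed stretches, read 199, 156.5 and 134 on the scrambled arrays and 303, 384 and 235 with the CKS1B shRNA. Every CKS1B shRNA array was above every scrambled array. Its log2 difference was 0.84 (SE 0.44, limma adjusted p = 0.933), or 0.67 without array B (SE 0.44, adjusted p = 0.628), so it did not pass. Its scrambled values lay near the limit for testing, a value near 146. A second HSPA6 probe set, below that limit, read 66.7, 84.3 and 159.5 against 91.2, 236.5 and 55.3. The groups overlapped there, and the difference without array B was -0.37.

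HSPA9, the HSP70 of the mitochondrial matrix, read 8292, 8576 and 5689 on the scrambled arrays and 7716, 716 and 5031.5 with the CKS1B shRNA. Only array B was far from the rest, and the difference moved from -1.28 to -0.25 without it. HSPH1, the HSP110 that acts as a nucleotide exchange factor for HSP70, read 7839, 9464 and 8377 and then 11011, 1785 and 10582.5. CKS1B shRNA arrays A and C were both above the scrambled arrays and B far below, and the difference without array B was 0.34 (SE 0.20, limma adjusted p = 0.593), or 0.05 after quantile normalization. A second bright HSPH1 probe set read 4659, 4464 and 2490 against 4648, 1489 and 2106, with a difference of -0.25 without array B. HSPA2, an HSP70 best known from the testis, had the layout of the first HSPH1 probe set at lower values, 519, 655.5 and 610.4 against 838, 352 and 956.

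HSPA4, another HSP110 relative, read 4226, 4002 and 3565 on the scrambled arrays and 4548, 6212 and 3849 with the CKS1B shRNA, and the groups overlapped. A second HSPA4 probe set read 1059 on array B where scrambled arrays read 2772 to 4297, so the gene's probe sets went opposite ways on that array. HSPA14, a ribosome-associated HSP70, read 3308, 2912 and 2562 against 3568, 2358 and 1493, with a difference of -0.33 without array B. On the probe sets used, the other 4 members (HSPA4L, HSPA1L, HSPA12A and HSPA12B) differed by -0.49 to 0.04 without array B, and their groups overlapped. A second HSPA4L probe set above the brightness limit read 319, 304 and 196 against 477, 494 and 434. Every CKS1B shRNA array was above every scrambled array there. Its difference without array B was 0.73, against -0.14 for the HSPA4L probe set used. HSPA12A, one of the distant HSP70 relatives, read 105.5 to 199 on the scrambled arrays and 145 to 428 with the CKS1B shRNA.

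J-domain proteins bring clients to HSP70 and set off its ATP hydrolysis. The 14 DNAJA and DNAJB genes gave 5 higher and 9 lower without array B, with a median of -0.11, which was -0.03 after quantile normalization and 0.08 after median centring. With 6 arrays the median was -0.15, or 0.02 after quantile normalization. DNAJB1, the main heat-inducible partner of HSP70, read 5074, 5105 and 3043 on the scrambled arrays and 5960, 332 and 5022 with the CKS1B shRNA. Arrays A and C of the CKS1B shRNA lay within or just above the scrambled values, and array B lay far below.

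DNAJB6, which keeps aggregation-prone proteins soluble and carries a heat shock element in its window, read 1471, 1642 and 1039 on the scrambled arrays and 930, 2518 and 693 with the CKS1B shRNA. Arrays A and C were below all scrambled arrays and array B above them. The difference was -0.20 with 6 arrays and -0.75 without array B (SE 0.28, limma adjusted p = 0.495), and it was -0.71 after quantile normalization of the 5 arrays. DNAJB4 went the other way, with 403, 272 and 592 against 687.5, 515 and 714, where array B fell inside the scrambled range. Without array B DNAJB4 was higher by 0.77 (SE 0.36, adjusted p = 0.531), or 0.83 after quantile normalization.

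DNAJA1, a cytosolic partner of HSP70 in protein import, read 10912, 13316 and 9512 on the scrambled arrays and 12549.5, 10398 and 8655.5 with the CKS1B shRNA, and the groups overlapped. DNAJA2 read 3113, 3602 and 1803.5 against 2191, 1892 and 2016, also with overlap. DNAJA3, the J-protein of mitochondria, read 4468, 3785 and 3085 against 4723, 6102 and 4641, so that every CKS1B shRNA array was above the highest scrambled array. Its difference was 0.45 (SE 0.38, limma adjusted p = 0.933), or 0.32 without array B. A second bright DNAJA3 probe set read 3926, 3123 and 3092 against 3931, 1468 and 3420, with overlap and a 6-array difference of -0.31. Of the rest, DNAJA4 (-0.54), DNAJB12 (-0.36) and DNAJB13 (-0.49) read lower without array B with overlapping groups, and DNAJB2, DNAJB5, DNAJB7, DNAJB8 and DNAJB14 lay between -0.43 and 0.10.

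The 25 DNAJC genes hold a J domain in otherwise unrelated proteins. Without array B 8 were higher and 17 lower, with a median of -0.12, or -0.03 after quantile normalization and 0.08 after median centring. The widest difference among all 75 chaperones without array B was that of DNAJC5G, a relative of the synaptic vesicle chaperone DNAJC5. DNAJC5G read 253, 204 and 565 on the scrambled arrays and 25.4, 150.5 and 157 with the CKS1B shRNA, dim values with no overlap. The difference was -1.62 with 6 arrays and -1.94 without array B (SE 0.69, limma adjusted p = 0.490), or -1.80 after quantile normalization. With the CKS1B shRNA the values of DNAJC5G lay below or close to the limit for testing, a value near 146. It passed that limit only through the scrambled arrays, so its test is of little weight.

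DNAJC8, a J-protein of the nucleus linked to splicing, read 2710, 2569 and 1914 against 1937.5, 1282 and 1276, with 1 CKS1B shRNA array inside the scrambled range. Its difference was alike with 6 arrays (-0.68) and without array B (-0.59, SE 0.27, limma adjusted p = 0.526). DNAJC5 read 679, 707 and 849.9 against 670.4, 1051 and 337, lower on arrays A and C alone. DNAJC6, the auxilin that uncoats clathrin vesicles, read 192, 203 and 66.7 against 213.5, 434 and 304. All CKS1B shRNA arrays were above (1.04, limma adjusted p = 0.933). Its scrambled values lay near or below the limit for testing, a value near 146. A second DNAJC6 probe set, below that limit, read 90.6, 48.3 and 112.5 against 140.9, 49.3 and 126.2. The groups overlapped there through array B, and the difference was 0.24 with 6 arrays and 0.64 without array B.

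A few further DNAJC genes were picked after their values were seen. DNAJC12 read 2273, 1912 and 2139 on the scrambled arrays and 1338, 1840 and 1836 with the CKS1B shRNA, lower on all 3 arrays. DNAJC30, a small mitochondrial protein, read 2280.4, 2212 and 2135 against 1916, 578 and 2004, also lower on all 3. DNAJC15, of the mitochondrial import motor, read 3586, 3427 and 3394 against 2764, 61.2 and 5520.4, the lowest value on array B and the highest on C. The remaining DNAJC genes differed by -0.43 to 0.37 without array B, with overlapping groups except DNAJC1 and DNAJC4, which read 0.27 and 0.37 higher on arrays A and C and lower on B.

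Most BAG proteins, though not all, hold a domain that binds HSP70 and releases its nucleotide. Among the 6 BAG genes, 1 was higher and 5 lower with 6 arrays (median -0.36). Without array B 2 were higher and 4 lower (median -0.14), which turned to 0.06 after median centring. BAG3, an HSF1 target that couples HSP70 to small heat shock proteins and autophagy, read 2422, 2807 and 1807.5 on the scrambled arrays and 3567, 853 and 3739.5 with the CKS1B shRNA. Arrays A and C were above every scrambled array and array B below every one. The difference was -0.03 with 6 arrays and 0.66 without array B (SE 0.24, 95% interval 0.12 to 1.20, limma adjusted p = 0.492), or 0.58 after quantile normalization.

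BAG6, which handles membrane proteins that miss their target, read 5209.9, 5375 and 5186 on the scrambled arrays and 6301, 9281 and 7019 with the CKS1B shRNA. All 3 CKS1B shRNA arrays were above, although a second BAG6 probe set read 1871 on array B against 6604 to 7262 on the scrambled arrays. Its difference was 0.50 (SE 0.40, limma adjusted p = 0.933), or 0.34 without array B. BAG2, an inhibitor of the ligase STUB1, read 5132, 5139 and 3621 against 5291, 547 and 3131.5, and BAG1 read 2527, 1982 and 2275 against 2215, 699.5 and 1456. BAG4 and BAG5 differed by -0.11 and -0.17 without array B, and the groups of these 4 genes overlapped.

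With the CKS1B shRNA, both cytosolic HSP90 genes read high on arrays A and C but low on B. HSP90AB1, the constitutive form, read 19152, 19349.8 and 22515 on the scrambled arrays and 24127, 688 and 45684 with the CKS1B shRNA. HSP90AA1, the inducible form, read 14989.9, 17013 and 17113 and then 17993, 1979 and 23307. For both genes arrays A and C were above every scrambled array, C most, and array B was lower than all others.

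With 6 arrays HSP90AB1 differed by -1.14 (SE 1.42, limma adjusted p = 0.933), and without array B by 0.71 (SE 0.28, 95% interval 0.08 to 1.34, adjusted p = 0.504), a 1.64-fold higher level on the log2(value + 16) scale. HSP90AA1 gave -0.80 and 0.33, the latter with an adjusted p of 0.633. Quantile normalization of the 5 arrays brought HSP90AB1 to 0.05 and HSP90AA1 to -0.20, so the higher reading was not kept on that scale, while median centring left the pair higher (median 0.72). The other probe sets of the same genes ran alike. On arrays A and C of the CKS1B shRNA, all 4 of HSP90AA1 and 2 of 3 of HSP90AB1 read above every scrambled array, and all 7 read lowest on array B, from 295 to 3521.

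The mitochondrial chaperonin gave a median of -0.48 with 6 arrays and 0.23 without array B, or -0.13 after quantile normalization of the 5 arrays. HSPE1, the lid of the chamber, read 8319.7, 9283 and 11263 on the scrambled arrays and 9852, 494 and 14271 with the CKS1B shRNA. HSPD1, which forms the chamber, read 14595, 13251 and 11921 against 17203.5, 17737.5 and 12488 on its brightest probe set. A second HSPD1 probe set with nearly the same mean read 18457, 18351 and 19902 against 23553, 1537 and 33631.5. The first placed array B highest and the second placed it lowest, and both read above the scrambled mean on array A.

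TRiC is a chamber of stacked rings built from different CCT subunits, 1 of each per ring, and TCP1 is the subunit not measured here. Of the 9 CCT genes, 4 were higher and 5 lower with 6 arrays (median -0.32). Without array B 5 were higher and 4 lower (median 0.12), with a median of 0.32 after centring, and after quantile normalization of those 5 arrays 1 was higher and 8 lower (median -0.34). The subunits split on array B, where 4 of the 9 lay more than 2 log2 units below the scrambled mean and the median shift was 0.25.

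CCT8 read 11454, 11597 and 11069 on the scrambled arrays and 8929.7, 91.7 and 6185 with the CKS1B shRNA. All 3 CKS1B shRNA arrays were below every scrambled array, B by far. The difference was -2.65 with 6 arrays (SE 1.50, limma adjusted p = 0.933) and -0.61 without array B (SE 0.22, 95% interval -1.11 to -0.12, adjusted p = 0.492). It was -0.89 after quantile normalization of the 5 arrays, with an adjusted p of 0.242, and that value and the one of CCT5 were the lowest of any chaperone in that fit. CCT7 was the other subunit below on all 3 arrays, with 6740.5, 6493 and 5253 against 5112, 426 and 4419.5, and a difference of -0.37 without array B.

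CCT3 and CCT4 were the subunits that read above the scrambled arrays on A and C and far below on B. CCT3 read 17056, 18223 and 17790.0 against 19272, 299 and 26878, and CCT4 read 15751, 15714 and 14589 against 16930.4, 931 and 16392. Their differences without array B were 0.36 and 0.12, and quantile normalization turned both, to -0.23 and -0.34.

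CCT2, CCT5 and CCT6A stayed bright on array B. CCT5 read 13305, 13328 and 14032.5 on the scrambled arrays and 10711, 25334 and 13573 with the CKS1B shRNA, with array B highest of all. CCT2 read 12778, 12131 and 11697 against 13231, 14873 and 13313, above on all 3 arrays by a small margin (0.18, SE 0.48), while a second bright CCT2 probe set overlapped between the groups (0.055). CCT6A read 9842.5, 9370.4 and 8146 against 11036, 10808 and 9397, where scrambled array A was above the lowest of the CKS1B shRNA arrays. CCT6B, a testis form, read 521, 403 and 439 against 352, 631 and 205, lower on arrays A and C (-0.71 without array B, limma adjusted p = 0.546), and CCT8L2 was under 100 on every array but B, which read 1041.

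Within each array, the rank of a gene's brightest probe set among those of all 19775 genes can be followed without any scaling. The CCT3 probe set ranked at the 99.4th to 99.7th percentile on 5 arrays and at the 34.6th on array B. CCT8 ranked at the 95.9th to 99.0th and at the 10.4th, and HSP90AB1 at the 99.7th to 99.8th and at the 65.9th. CCT5 moved from the 98.3rd to 99.3rd percentile to the 99.8th on array B. The low readings of CCT3, CCT8 and HSP90AB1 on array B were thus differences of rank and not of scale alone.

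**Figure D2:**
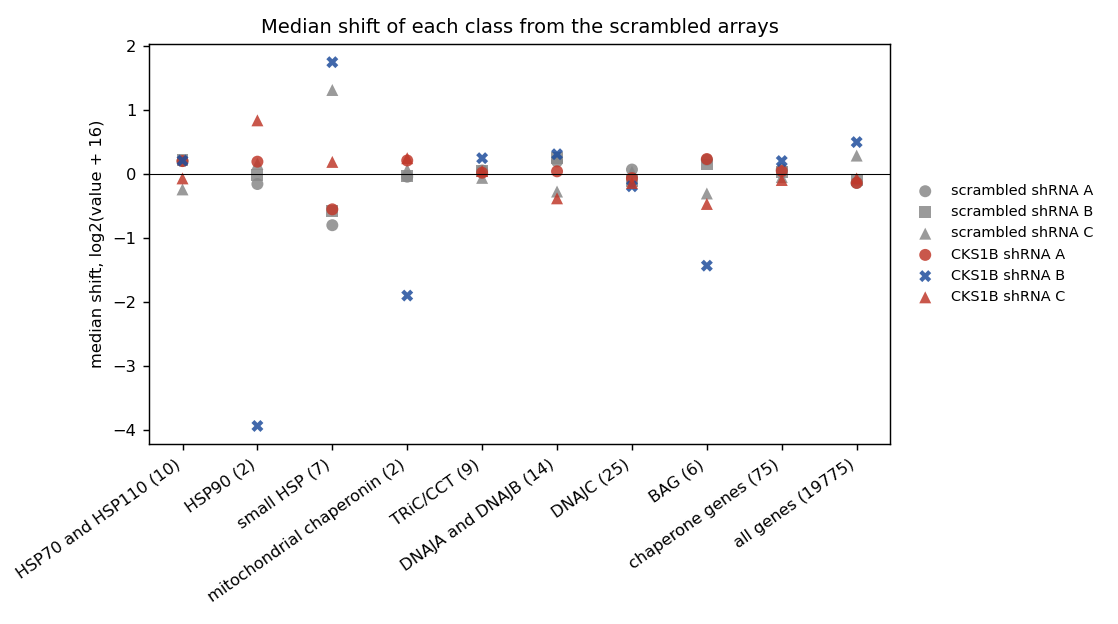
Median shift of each chaperone class from the scrambled mean (vertical axis, log2(value + 16) units) on each of the 6 arrays, with the number of genes in brackets and all genes at the right. CKS1B shRNA array B (blue crosses) lies lowest for HSP90 at -3.94, for the mitochondrial chaperonin at -1.90 and for BAG at -1.43, and highest for the small heat shock proteins at 1.75.

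Small heat shock proteins hold unfolded clients without using ATP, and they were dim on these arrays, with only HSPB1 and HSPB6 bright enough to be tested. The 7 gave a median of 0.66 with 6 arrays and 0.16 without array B, where scrambled arrays alone spread from -0.80 to 1.32 in their median shift. HSPB1, the member most widely expressed in human tissue, read 194, 512 and 228 on the scrambled arrays and 351, 995 and 510.2 with the CKS1B shRNA, and the groups overlapped. Its difference was 0.95 (SE 0.52, limma adjusted p = 0.933), or 0.55 without array B. HSPB6 differed by 0.37 and 0.16. HSPB8, the BAG3 partner among them, was not tested and read 37.4, 23.8 and 201 against 121, 224 and 206.

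The readings on array B followed brightness among chaperones and among all genes. Of the 15 chaperones with a scrambled mean of 5000 or more, 9 (60%) lay more than 2 log2 units below that mean on array B, with a median shift of -3.04. Of all 900 genes that bright, 473 (52.6%) did so, with a median of -2.11. From 1000 to 5000 the share was 24% of 25 chaperones and 20.1% of all genes, and under 1000 it was 1 of 35 (2.86%) and 2.27%. The dim chaperones read higher on array B, by a median of 1.09 against 0.95 for all genes. On arrays A and C the 15 bright chaperones had median shifts of 0.14 and 0.10, and the 900 bright genes 0.19 and 0.27. The actin and GAPDH ratios of array B moved with these readings, and their part in them was not tested.

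**Figure D3:**
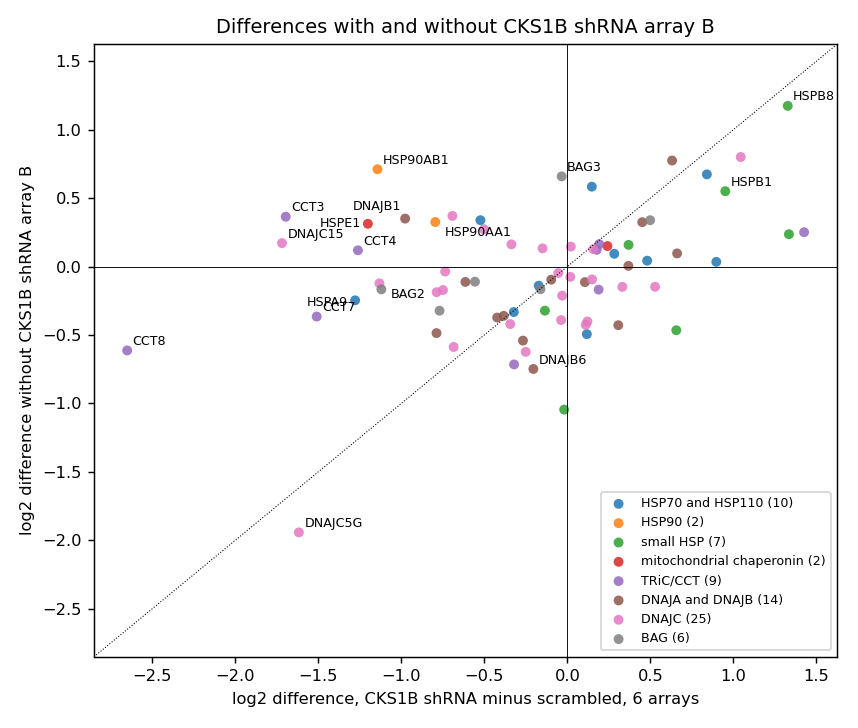
Log2 difference (CKS1B shRNA minus scrambled) of the 75 chaperone genes with 6 arrays (horizontal) and without CKS1B shRNA array B (vertical), coloured by class, with the dotted line marking equal values. HSP90AB1, CCT3, HSPE1 and DNAJB1 lie upper left, lower with 6 arrays and higher without array B, while CCT8 and DNAJC5G are lower in both.

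Probe sets of 1 gene gave a further look at array B. For 44 chaperone genes at least 2 probe sets were above the brightness limit. On array B the probe sets of 21 genes lay more than 2 log2 units apart, and in the difference without array B those of 0 genes did. The median range between probe sets of a gene was 1.80 on array B and 0.45 in that difference. The first measure rests on 1 array and the second on a mean of 2, and averaging by itself narrows a range. The same ranges were not taken for arrays A and C alone or over all genes. Without array B all probe sets were higher for 11 genes, all lower for 12, and split for 21. DNAJC15 was the extreme, with a range of 7.01 on array B.

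**Figure D4:**
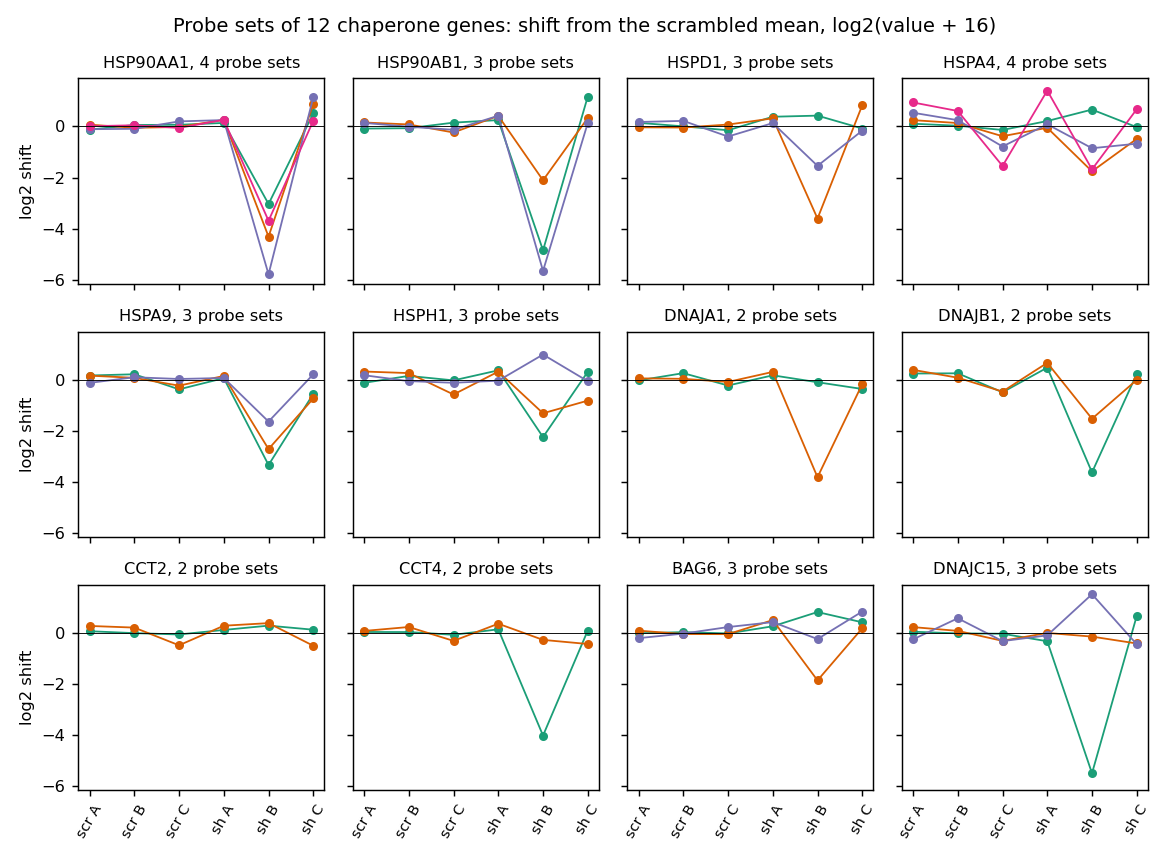
Shift of each probe set from its scrambled mean (vertical, log2(value + 16)) on the 6 arrays for 12 chaperone genes, scr for scrambled and sh for CKS1B shRNA, 1 line per probe set above the brightness limit. Lines run close together on 5 arrays for most genes and part on sh B, as for HSPD1, HSPH1, DNAJA1 and DNAJC15, while the 4 lines of HSP90AA1 all drop there.

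Quantile normalization of the 5 arrays without array B changed the sign of 13 of the 75 chaperones. Among them were HSP90AA1, HSPD1, HSPE1, CCT2, CCT3, CCT4 and CCT6A, all bright and all higher before. BAG3, HSPA6, DNAJB4, DNAJB6, CCT8 and DNAJC5G kept their sign, with differences of 0.58, 0.89, 0.83, -0.71, -0.89 and -1.80.

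**Figure D5:**
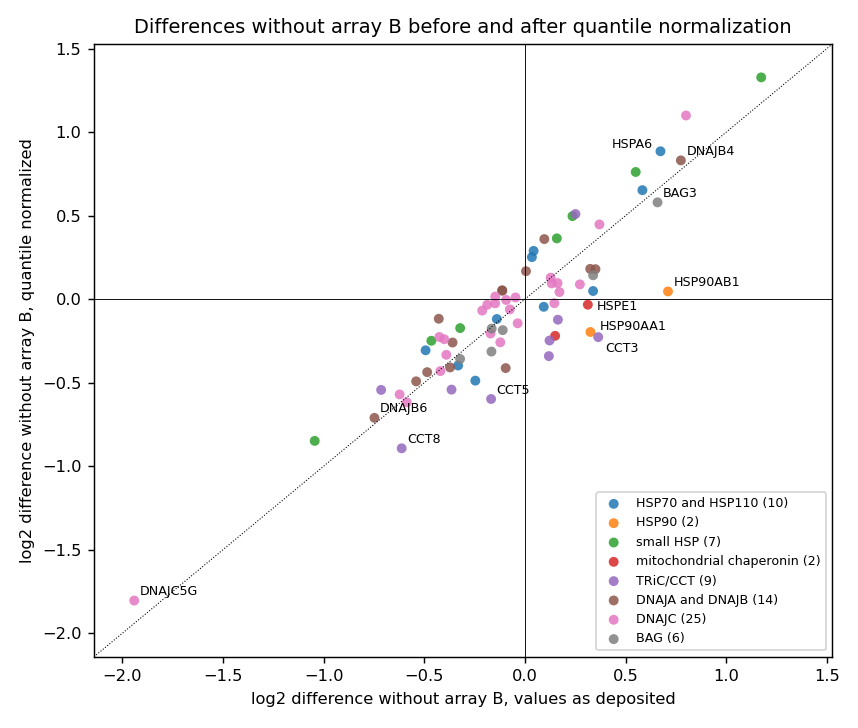
Log2 difference without CKS1B shRNA array B for the 75 chaperone genes with the values as deposited (horizontal) and after quantile normalization (vertical), coloured by class, with equal values on the dotted line. HSP90AB1, CCT3 and HSPE1 fall well below the line, close to or under 0, whereas BAG3, DNAJB6 and DNAJC5G stay near it.

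The 6 genes with a long heat shock element split. Without array B HSP90AB1, HSP90AA1, HSPA6 and HSPD1 read higher and DNAJB6 and DNAJA1 lower, with a median of 0.24, which was -0.15 with 6 arrays and -0.21 after quantile normalization of the 5 arrays. The 43 genes whose window held neither form gave 17 higher and 26 lower without array B, with a median of -0.11, which was -0.15 with 6 arrays and -0.046 after quantile normalization. The genes with the long element thus lay above these without array B, level with them with 6 arrays and below them after quantile normalization. The 17 genes with the shorter form alone gave 10 higher and 7 lower without array B. Their median was 0.12, which was -0.14 with 6 arrays and -0.12 after quantile normalization. HSP90AB1, HSP90AA1, HSPD1 and DNAJA1 had scrambled means above 5000, and the part of brightness in this contrast was not tested. On the probe sets used, HSPA6, with 1 match, was alone among the 6 in having all 3 CKS1B shRNA arrays above the scrambled arrays. DNAJB6 was lower on arrays A and C despite its match.

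Of 42 listed partners of the chaperones, 38 were named on the array and 37 tested, and 0 passed an adjusted p of 0.05 in limma in either direction, with 6 arrays or without array B. Among the 37, 11 had groups that did not overlap without array B, against 28.0% of all genes tested. Of these, 9 were higher and 2 lower, against 13.6% and 14.4% of all genes tested. HSF1 itself read 2034, 2145 and 2087 on the scrambled arrays and 2353, 798 and 4415 with the CKS1B shRNA (0.62 without array B, limma adjusted p = 0.520). HSBP1, a small protein that binds HSF1, read 4900.5, 5255 and 4634 against 6633, 320.3 and 10585 (0.77, adjusted p = 0.460). Both were above every scrambled array on A and C and below on B.

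Of the 12 HSP90 co-chaperones, 1 was higher and 11 lower with 6 arrays, and 8 were higher and 4 lower without array B (median 0.11), where quantile normalization turned PPID, CHORDC1 and NUDC lower and TTC4 higher and gave a median of -0.0020. PTGES3 (p23), which stabilises the closed form of HSP90, was on the lower side with 14867, 15195 and 13413 against 11616, 1959 and 9401, below on all 3 arrays. The 5 HSP70 co-chaperones were all higher without array B (median 0.44), but after quantile normalization their median was 0.095, with ST13 at -0.13 and STUB1 at 0.043. STUB1, the ubiquitin ligase that binds HSP70 and HSP90, read 11567, 10299.8 and 11351 against 11136, 12833 and 23017, with array C alone far above. Of the 8 mitochondrial partners, 3 were higher and 5 lower with 6 arrays, and 5 were higher and 3 lower without array B. CLPP, the matrix protease, read 3219, 2485.5 and 2259.7 against 3786, 775 and 7553 (1.02 without array B, limma adjusted p = 0.460). GRPEL1 and GRPEL2, of smallest limma p in this list with 6 arrays, differed by -0.80 and -0.61, or by -0.37 and -0.55 without array B. The prefoldin and tubulin-folding genes gave 4 higher and 6 lower with 6 arrays, and 8 higher and 2 lower without array B (median 0.18). Of these, PFDN2 and TBCA turned lower after quantile normalization (median 0.039). PFDN5, of smallest limma p in that list in both fits, read 5027, 4637 and 5448 against 5488, 8947 and 8645, above on all 3 arrays.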

How the data were processed

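Total RNA of JJN3 cells was measured on 6 arrays, and groups were taken from the titles. The deposited values are linear intensities, and per the submitters' processing notes the authors used MAS5. The sources used here give neither its version and parameters nor a genome build. These intensities had nearly the same 2% trimmed mean (500.02 to 500.06) on every array, which does not equalise the width of their distributions. Of 54675 probe sets, 62 controls were left out, and 41091 named 1 gene in the platform annotation, which gave the symbols. Values were used as log2(value + 16). The brightest probe set over 6 arrays stood for a gene and was kept when arrays were left out, and genes below the median probe set were not tested. The test was that of limma 3.58.1 (R 4.3.3), with lmFit, then eBayes with a trend and no covariate, and Benjamini-Hochberg adjustment over all genes tested at a threshold of 0.05. Without CKS1B shRNA array B, the 2 arrays left share the spread estimate of the scrambled arrays. Fits were tested on simulated data. The number of arrays limits the precision.

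The members, the lists, the classes and the tests were chosen with earlier results of these data known. The text names a core of chaperones, the 3 members of smallest p per class in each fit and any member past the threshold. From this rule came 45 chaperones, of which 40 were measured. Partner genes are named as examples, some of them with a large p, and not all those of smallest p are named. No label says that shared letters pair the arrays, and they were not treated as pairs in the main fit. Deviations from the group means correlated at 0.40 for A, -0.08 for B and -0.08 for C, and at -0.37 to 0.26 between different letters. CKS1B shRNA array B enters the mean of its group, so these values cannot settle whether the letters pair the arrays. The alternatives were other pseudocounts (1 and 64) and filters, median centring, quantile normalization, other choices of probe sets, eBayes without trend, array weights, the letter as a block, and leaving out arrays. Added after the data were seen were 3, all without array B: probe sets chosen over 5 arrays, median centring, and leaving out scrambled array C too. Promoter windows came from RefSeq (GRCh38.p14), and matplotlib 3.10.9 under Python 3.11.15 made the plots.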

Additional observations from a re-analysis of the deposited data

How the results depend on the processing

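No chaperone passed an adjusted p of 0.05 in any of the fits run, and the lowest was 0.172, without CKS1B shRNA array B after median centring. The number of genes called was 0 with 6 arrays, 4 with array weights, 1 without both arrays of letter B, 0 without array B and scrambled array C (509 higher and 622 lower at an unadjusted p under 0.05), 2 after quantile normalization without array B, 6 with probe sets chosen over the 5 arrays, 20 with those arrays centred on the median, and 0 to 5 when each array was left out in turn (5 without CKS1B shRNA array B). The median of the 75 chaperones was -0.33 after median centring, 0.10 with centring of the 5 arrays, 0.025 without array B and scrambled array C, and -0.21 to 0.035 over the single arrays left out. HSP70 and HSP110 gave -0.10 after centring and -0.060 after quantile normalization, and the mitochondrial chaperonin 0.44 with probe sets chosen over 5 arrays and 0.43 with those arrays centred. TRiC/CCT gave -0.55 after centring, -0.043 with array weights, 0.12 without both arrays of letter B and with probe sets chosen over 5 arrays, 0.32 with the 5 arrays centred, 0.082 without scrambled array C too, and -0.40 to 0.12 over the single arrays left out. DNAJC gave -0.38 after centring, -0.050 as the mean of all probe sets, -0.031 with probe sets without a suffix, -0.033 after quantile normalization without array B, -0.082 with array weights, -0.065 without both letters B, 0.075 with the 5 arrays centred, 0.028 without scrambled array C too, and -0.29 to -0.082 over the single arrays left out. CKS1B passed with array weights (-3.80), without both letters B (-3.59), after quantile normalization without array B (-3.68), with probe sets chosen over 5 arrays (-3.63) and with the 5 arrays centred (-3.43), and ranged from -4.41 to -3.63 over the single arrays left out. Without array B and scrambled array C it was -3.69 and did not pass. With the letter as a replicate block, the median of the chaperones stayed at -0.10, CKS1B at -4.02 and the number of genes called at 0. For all these differences the cause was not tested. Other alternatives moved each of these medians by less than the spread between arrays, a spread that array B widens. Dim probe sets, among them most small heat shock proteins, carry little signal over background, and 2 or 3 arrays a group leave wide intervals.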

Other observations

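The symbols set apart from the 75 chaperones were given as values only. DNAJC9-AS1, an antisense RNA next to the histone chaperone gene DNAJC9, read 503, 463 and 632 on the scrambled arrays (A, B, C) and 199.8, 535.5 and 202 with the CKS1B shRNA. Arrays A and C were below every scrambled array, and the log2 difference without array B was -1.33 (SE 0.33, limma adjusted p = 0.421). For DNAJC9 itself the probe set used gave -0.12 with overlap, and a second bright one gave -0.72, at 855, 970 and 716 against 561.5, 260 and 451, with no overlap. HSPBAP1 read 294, 264 and 347 against 282, 616 and 567. TCP11L2, taken with TCP1 only by its letters, read 754, 886 and 1835.5 against 496, 1792 and 1856. TCP10L3 was dim, at 118.5 to 341 on the scrambled arrays and 22.2 to 104 with the CKS1B shRNA, with no overlap and no test. The other 4 non-coding RNAs were under 500 on every array. These symbols were picked after their values were seen.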
